A study of Mus musculus with 6 samples.

Results

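A block of 10 neighbouring genes at about 80 Mb of mouse chromosome 7, lying around Man2a2, was followed in bone marrow-derived macrophages, cells grown from marrow precursors in culture. Libraries of polyadenylated RNA came from Ube3a knockout mice (labelled UBE3A KO, n = 3) and from wild-type littermates (WT, n = 3), and the labels name no treatment, age, sex or strain for either group. The knockout allele is not described further, nor is the DNA linked to it. Differences between KO and WT can therefore not be assigned to loss of Ube3a alone. The labels do not say whether each library came from a separate mouse, so the spread between replicates 1 and 3 may be technical. The block was chosen by the measured KO to WT differences of Man2a2 and its neighbours in these same 6 libraries, and its members are the neighbours of Man2a2. Differences between the genotypes are therefore given as descriptions, with no test of their own. All 10 of 10 genes were among the 16836 in the deposited table, and all 10 passed the filter of 1 CPM in at least 3 libraries that left 12118 genes for the fit.

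The block joins genes of unrelated function. Man2a2 encodes a Golgi alpha-mannosidase that trims mannose from N-linked sugar chains so that complex branches can be built, a step it shares with the related enzyme Man2a1. Furin is a protease of the trans-Golgi that cuts precursors of growth factors, receptors and metalloproteinases into their active forms, and Fes is a cytoplasmic tyrosine kinase found mainly in myeloid cells. Hddc3 is a small hydrolase of the HD-domain family, Ngrn takes part in assembly of the mitochondrial ribosome, and Unc45a is a chaperone that works with HSP90 to fold myosins. Blm is the DNA helicase lost in Bloom syndrome, Prc1 bundles microtubules of the central spindle at cell division, Vps33b takes part in membrane fusion and sorting along the endosomal route, and Rccd1 is a partner of the protein hydroxylase KDM8.

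Levels are given as CPM, the read count of a gene scaled to a common library total with the library sizes of the authors. Reads counted on the genes of the deposited table came to 25454862 to 35517269 per library, and 1 read was worth 0.0277 to 0.0400 CPM. Ube3a itself stood at 69.7, 61.2 and 77.0 CPM in KO replicates 1 to 3 and at 207, 194 and 178 CPM in WT replicates 1 to 3, so it was lower in every library labelled KO. Replicate 2 of each genotype stood apart in Xist, the RNA of the inactive X chromosome, with 0.900 CPM in KO and 0.495 CPM in WT against 1087 to 1329 CPM in the other 4 libraries. All 8 macrophage markers looked for were tested, and 6 of the 8 had a positive difference. Their summed level was 13571 to 16115 CPM in KO and 14720 to 15558 CPM in WT. Neutrophil markers summed to 2.76 to 10.4 CPM in KO and 4.81 to 16.4 CPM in WT, and each of the 4 tested had a negative difference. B cell, fibroblast and dendritic markers summed to at most 4.38 CPM in any library, and none of the T cell or erythroid markers had a row to analyse here. The part of these markers in the values below was not tested.

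In the GENCODE M21 annotation of GRCm38, the block spans 273.9 kb of chromosome 7, from 80261215 to 80535119. From low to high coordinates its genes are Ngrn (80261215 to 80265374), Vps33b (80269649 to 80291754), Rccd1 (80293229 to 80324454), Prc1 (80294450 to 80316259), Unc45a (80325292 to 80341005), Hddc3 (80343104 to 80350547), Man2a2 (80349097 to 80371375), Fes (80377756 to 80387946), Furin (80388585 to 80405436) and Blm (80454733 to 80535119). Ngrn, Vps33b, Prc1 and Hddc3 are transcribed from the plus strand and the other 6 from the minus strand. The gene ends of Hddc3 and Man2a2 overlap on opposite strands by 1451 bp, of which 427 bp are exonic in both, or 11.3% of the Hddc3 exon length and 4.14% of that of Man2a2. Gm18310, annotated on the opposite strand, overlaps 65.0% of the Hddc3 exon length and was not analysed here. Prc1 lies whole within the span of Rccd1 on the other strand, with 911 bp of shared exon, which is 11.5% of the exon length of Rccd1. No source at hand says whether reads were counted by strand. In these shared parts, reads of the genes on either strand cannot be told apart.

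**Figure D1:**
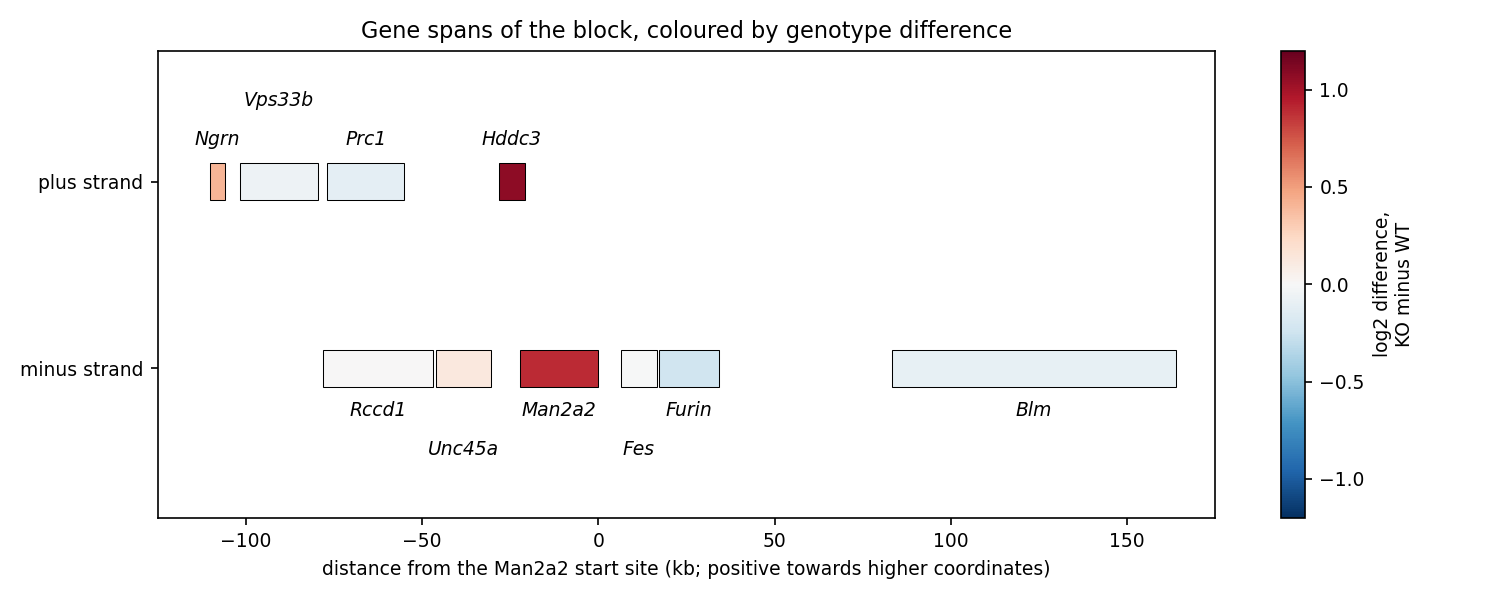
Gene spans of the block by strand, with the distance from the Man2a2 start site in kb on the x axis and the colour giving the log2 difference (KO minus WT). Man2a2 (0.90) and Hddc3 (1.08) are dark red and meet at their ends, Ngrn (0.41) at the far left is light red, and Furin (−0.24) is the deepest blue.

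Start-site sequences were available in the RefSeq promoter table (GRCm38.p6) for 8 of the 10 genes, with 10 entries in all since Prc1 and Furin have a pair each, and Man2a2 and Vps33b were not among them. The 200 bases from 250 to 51 before the start are shown for Hddc3 and Ngrn, whose KO values all lay above WT, for the upstream start of Furin, whose KO values all lay below WT, and for Fes, whose values overlapped although it sits between Man2a2 and Furin. Capitals mark matches, on either strand, to the GC box GGGCGG, the CCAAT box CCAAT, the TATA box TATAAA, the ETS core CCGGAA or the E-box CACGTG.
Hddc3, chr7:80342887-80343086, plus strand: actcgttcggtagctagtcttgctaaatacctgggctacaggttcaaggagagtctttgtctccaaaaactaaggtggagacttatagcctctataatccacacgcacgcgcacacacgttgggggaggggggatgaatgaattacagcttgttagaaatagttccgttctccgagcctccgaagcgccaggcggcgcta
Ngrn, chr7:80260965-80261164, plus strand: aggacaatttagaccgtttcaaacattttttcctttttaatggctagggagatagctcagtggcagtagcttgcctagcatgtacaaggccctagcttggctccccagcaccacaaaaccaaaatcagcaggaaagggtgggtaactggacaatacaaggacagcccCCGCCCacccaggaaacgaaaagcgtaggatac
Furin, chr7:80405487-80405686, minus strand: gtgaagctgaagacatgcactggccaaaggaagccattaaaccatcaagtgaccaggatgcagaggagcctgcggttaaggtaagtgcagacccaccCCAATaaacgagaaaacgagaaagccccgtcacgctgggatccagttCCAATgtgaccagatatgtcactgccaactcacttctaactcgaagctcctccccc
Fes, chr7:80387997-80388196, minus strand: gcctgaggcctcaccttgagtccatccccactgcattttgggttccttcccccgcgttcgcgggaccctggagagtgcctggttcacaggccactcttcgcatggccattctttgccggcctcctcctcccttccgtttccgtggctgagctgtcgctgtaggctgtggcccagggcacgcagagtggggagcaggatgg
In these windows Ngrn held a single GC box, Furin held 2 CCAAT boxes, and neither Hddc3 nor Fes held a match, which says only that these letters are not there. Over the full 300 bases of each entry, 7 of 10 had a GC box against 35.7% of all 32851 promoters in the table, 5 of 10 a CCAAT box against 37.4%, 1 of 10 (Furin) a TATA box against 13.6%, 1 of 10 (Ngrn) an ETS core against 14.9%, and none an E-box against 7.15%. Overlapping windows of Prc1 are counted as separate entries here. Hddc3 had 20 CpG dinucleotides in its 300 bases, more than 73.5% of all promoters, Ngrn and Fes had 15 each, and the Furin entries had 7 at the upstream and 51 at the downstream start, the latter with 2 GC boxes in its window. Over the full entries the GC box was found both in Ngrn and in Fes.

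To compare genes with each other, CPM were divided by the exon length in kb. In WT macrophages Prc1 (28.2 ± 3.05 CPM per kb, SD, n = 3) and Fes (25.3 ± 1.78) were the most abundant, and their ranges over the WT libraries overlapped. Furin followed at 10.1 ± 0.347 and Ngrn at 8.59 ± 0.290 CPM per kb, each apart from its neighbours in this order. Vps33b (4.70 ± 0.404), Blm (4.42 ± 0.301), Unc45a (4.08 ± 0.217) and Man2a2 (3.66 ± 0.252) formed a run in which each range overlapped the next. Hddc3, at 0.870 ± 0.0312, and Rccd1, at 0.413 ± 0.0441 CPM per kb, were the least abundant and did not overlap. In KO the length-scaled level of Man2a2 was 6.95 ± 1.03 CPM per kb, above the WT means of Vps33b, Blm and Unc45a, and that of Hddc3 was 2.17 ± 0.588.

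Man2a2 was nearly doubled in KO macrophages. Its level was 62.6, 83.3 and 69.2 CPM in KO replicates 1 to 3 and 35.0, 38.1 and 40.2 CPM in WT replicates 1 to 3. The lowest KO library exceeded the highest WT library by 22.4 CPM, and the mean of KO (71.7 ± 10.6 CPM) was 1.90 times that of WT (37.8 ± 2.60 CPM). On the log2(CPM + 1) scale, which understates changes of low genes, the KO minus WT difference was 0.90 ± 0.11 (SE, n = 3 per genotype, 95% interval 0.65 to 1.15). It ranked 5 from the top among the differences of the 12118 genes. It rested on 1565 to 2593 reads per KO library and 1078 to 1449 per WT library. Because these are bulk samples, a change in the share of cells that express the gene and a change of RNA per cell cannot be told apart, here or for the genes below. Without replicate 2 of both genotypes, the libraries with almost no Xist, the log2 difference was 0.79 for Man2a2, 0.92 for Hddc3, 0.39 for Ngrn and −0.32 for Furin.

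Hddc3, which meets Man2a2 tail to tail, had a larger ratio of KO to WT. It stood at 6.08, 10.5 and 8.05 CPM in KO replicates 1 to 3 and at 3.30, 3.40 and 3.16 CPM in WT replicates 1 to 3. Every KO library was above every WT library, and the KO values were more spread (CV 27.0%) than the WT values (CV 3.59%). The means of 8.21 ± 2.22 and 3.28 ± 0.118 CPM gave a ratio of 2.50 and a log2 difference of 1.08 ± 0.17 (95% interval 0.68 to 1.47), which ranked 3 from the top. The reads behind these values were 152, 327 and 261 in KO and 103, 96 and 114 in WT. With so few reads in each WT library, the small WT spread is uncertain, and the difference in spread was not tested.

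Summing both genes gives a level that does not depend on which of them a shared read was assigned to. Reads counted for neither gene are not in it. Man2a2 made up most of the mean sum, at 71.7 of 79.9 CPM in KO and 37.8 of 41.1 CPM in WT. The sum therefore mostly repeats Man2a2 and says little about Hddc3. The sum was 68.7, 93.8 and 77.2 CPM in KO replicates 1 to 3 and 38.3, 41.5 and 43.3 CPM in WT replicates 1 to 3, a ratio of means of 1.95. The genes did not differ in proportion, since the Man2a2 to Hddc3 ratio of CPM was 10.3, 7.93 and 8.59 in the KO libraries and 10.6, 11.2 and 12.7 in the WT libraries. All 3 KO ratios were thus below all 3 WT ratios, by a narrow margin at KO replicate 1. Both genes were lowest in KO replicate 1 and highest in KO replicate 2, while in WT Man2a2 was highest in replicate 3 and Hddc3 in replicate 2.

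**Figure D2:**
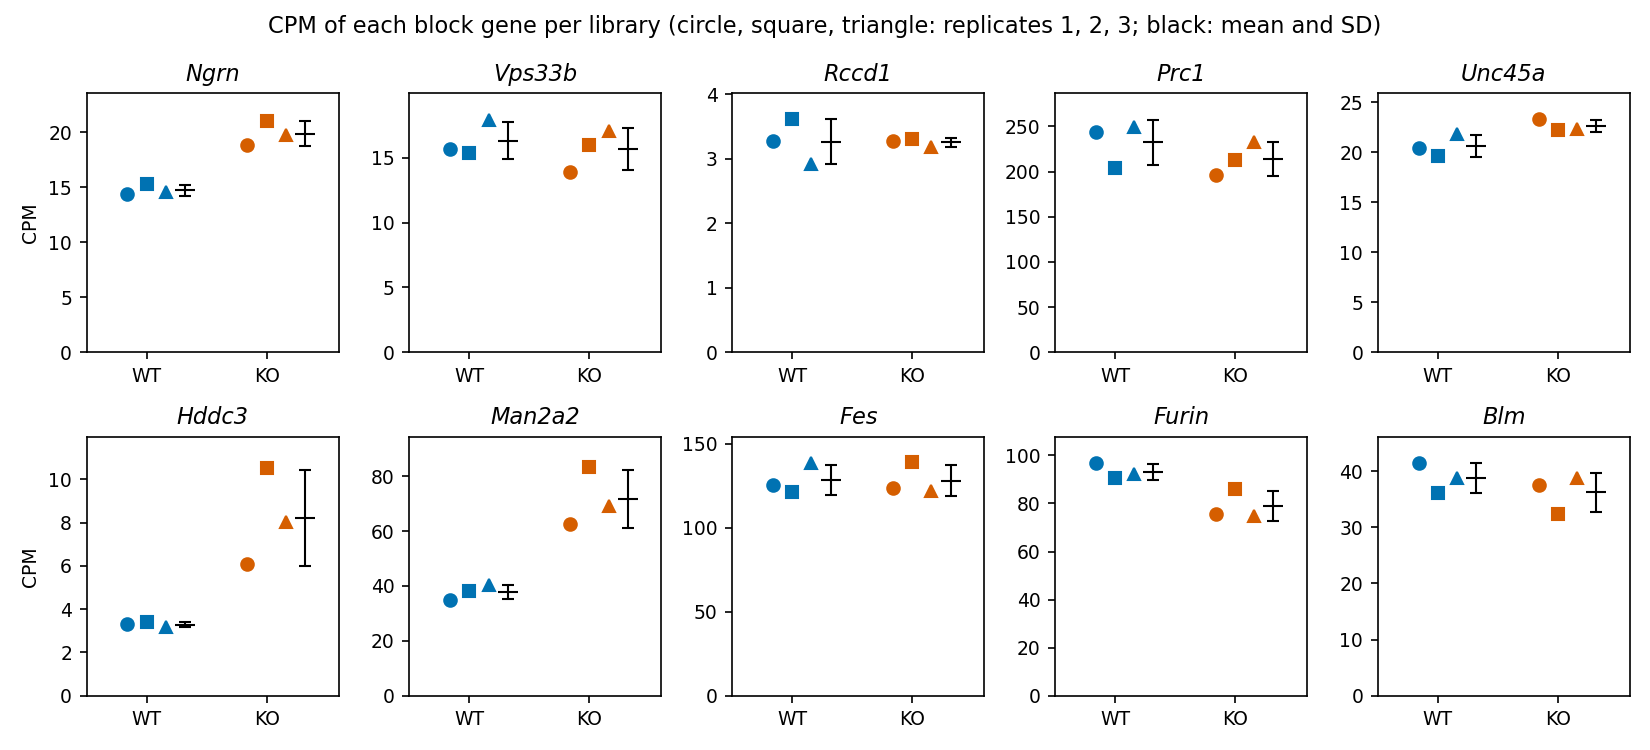
CPM of each gene in the 3 WT and 3 KO libraries, with genes in chromosomal order, each axis starting at 0, and black marks for the mean and SD. Man2a2, Hddc3, Ngrn and, by a small margin, Unc45a have all KO points above all WT points, Furin has them below, and the other 5 genes overlap.

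Ngrn, at the low-coordinate end of the block, was also higher in every KO library. Its level was 18.8, 21.04 and 19.7 CPM in KO and 14.3, 15.3 and 14.5 CPM in WT replicates 1 to 3. The groups were separated by 3.52 CPM, and the log2 difference was 0.41 ± 0.08 (95% interval 0.22 to 0.59), with a ratio of means of 1.35. Ngrn had the same order of KO libraries as Man2a2 and Hddc3, with replicate 2 highest and replicate 1 lowest. Its next neighbour, Vps33b, starts 4274 bp beyond the end of Ngrn on the same strand and did not follow it. Vps33b stood at 13.9, 15.999 and 17.1 CPM in KO and at 15.7, 15.4 and 17.9 CPM in WT, with a log2 difference of −0.06 (95% interval −0.30 to 0.18). Within each library the Ngrn to Vps33b ratio of CPM was 1.35, 1.32 and 1.16 in KO and 0.916, 0.993 and 0.810 in WT, so the groups did not overlap on this scale either, which does not depend on library size.

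Unc45a, which is transcribed away from Hddc3 across a gap of 2098 bp, differed little. It stood at 23.3, 22.2 and 22.3 CPM in KO and at 20.4, 19.6 and 21.8 CPM in WT replicates 1 to 3. The groups were separated by only 0.465 CPM, and the 95% interval of the log2 difference of 0.13 ran from −0.04 to 0.30, so that it held 0. The Hddc3 to Unc45a ratio of CPM was 0.261, 0.473 and 0.3605 in KO and 0.161, 0.173 and 0.145 in WT, with no overlap.

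Furin, the protease, was lower in KO. It stood at 75.8, 86.0 and 74.9 CPM in KO replicates 1 to 3 and at 96.7, 90.6 and 92.1 CPM in WT replicates 1 to 3. All KO values lay under all WT values, by 4.51 CPM at the closest, and the KO mean (78.9 ± 6.18 CPM) was 84.8% of the WT mean (93.1 ± 3.19 CPM). The log2 difference was −0.24 ± 0.07 (95% interval −0.40 to −0.07). Against Fes, which starts 638 bp from the end of Furin and is transcribed in the same direction, the Furin level was 0.614, 0.619 and 0.615 in KO and 0.770, 0.747 and 0.664 in WT. The 3 KO ratios lay close together and under all WT ratios.

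Fes, directly upstream of Man2a2 on the same strand, had nearly equal means in the genotypes (128.0 ± 9.48 CPM in KO and 128.5 ± 9.05 CPM in WT). It stood at 123, 139 and 122 CPM in KO and at 125, 121 and 139 CPM in WT replicates 1 to 3. The log2 difference was −0.01 with a 95% interval of −0.19 to 0.18, or 0.879 to 1.13 as a ratio of CPM + 1. The Man2a2 to Fes ratio of CPM was 0.507, 0.600 and 0.568 in KO against 0.279, 0.314 and 0.290 in WT. The gene bodies of Fes and Man2a2 are 6380 bp apart.

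The remaining genes also overlapped between genotypes. Blm, at the high-coordinate end and 49296 bp beyond Furin, stood at 37.5, 32.4 and 38.8 CPM in KO and at 41.4, 36.1 and 38.9 CPM in WT (log2 difference −0.10, 95% interval −0.31 to 0.11). Prc1 stood at 196, 213 and 233 CPM in KO and at 244, 204 and 249.5 CPM in WT (−0.11, −0.34 to 0.11). These 2 genes serve dividing cells, and both had negative differences within the spread between libraries. Rccd1, which shares exon sequence with Prc1, stood at 3.28, 3.31 and 3.18 CPM in KO and at 3.27, 3.61 and 2.91 CPM in WT (0.00, −0.25 to 0.25), with only 82 to 105 reads per library. As ratios of CPM + 1, the intervals were 0.808 to 1.08 for Blm, 0.789 to 1.08 for Prc1 and 0.815 to 1.13 for Vps33b. That of Rccd1 was 0.841 to 1.19, which understates the range of its level, since its CPM is low.

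Counted together, 4 of the 10 genes had all KO values above all WT values, against 4.41% of the 12118 genes, and 1 of 10 had all of them below, against 5.55%. None of the 10 passed an adjusted p of 0.05 in the limma fit over all genes, where 0.0165% (2 genes) did, and none passed with limma-voom. Without replicate 2 of both genotypes, Man2a2 passed (limma, Benjamini-Hochberg adjusted p = 0.0283) as 1 of 24 genes over all tested, and 8 genes passed without WT replicate 2 alone, none of them in the block. The unadjusted 95% interval lay above 0 for 3 genes, below 0 for 1 and held 0 for 6. Over all tested genes, 4.13% had an unadjusted p under 0.05 (limma), that is, an interval without 0. Nothing is read from these counts or from the pass of Man2a2, since the same libraries chose the block. The summed level of all 10 genes overlapped between genotypes, at 560.9 to 626.5 CPM in KO and 546.9 to 619.6 CPM in WT. In KO, replicate 2 had the highest value for 6 of the 10 genes and the lowest for 2, Blm and Unc45a.

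Among all 38 tested genes whose bodies lie within 1 Mb of Man2a2, the 28 that are not in the block gave the local range. Their log2 differences ran from −0.14 to 0.48 with a median of 0.02, where the median over all tested genes was 0.00. Of the 28, 3 had all KO values above WT, or 10.7% beside 4.41% of all tested genes, and none had all of them below. Sema4b, a membrane semaphorin whose gene body is 122.6 kb from that of Man2a2, was one, at 5.32, 5.33 and 4.22 CPM in KO and 3.65, 2.37 and 3.88 CPM in WT (log2 difference 0.48, 95% interval 0.10 to 0.86). Crtc3, a coactivator of CREB and the nearest tested gene past Blm, was another, at 31.3, 34.0 and 31.5 CPM in KO and 25.5, 27.8 and 29.9 CPM in WT (0.21, 0.03 to 0.40). Zfp592, a zinc finger gene, had a difference of 0.06 with an interval that held 0. Gdpgp1, the nearest tested gene on the other side of the block, stood at 7.64, 6.36 and 5.92 CPM in KO and at 5.67, 6.23 and 6.68 CPM in WT (0.08, −0.19 to 0.35). Along the chromosome, Cib1 and Gdpgp1, whose groups overlapped, lie between Sema4b and Ngrn, and Blm lies between Furin and Crtc3. The one tested gene inside the block that is no member, the pseudogene Ndufab1-ps within Blm, had −0.06 (−0.31 to 0.18). Groups were separated in either direction for 8 of the 38 genes, or 21.1%, beside 9.95% of all tested genes. Among the 28 outside the block the share was 10.7%, all with KO above WT. The 38 include the block genes, which these same libraries chose, so nothing is read from the share over the 38, here or with fewer libraries. Fewer libraries separate more often by construction: without WT replicate 2 the count was 13 of 38 (34.2%, beside 30.1% of all tested genes), and without replicate 2 of both genotypes it was 18 of 38 (47.4%, beside 42.8%).

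**Figure D3:**
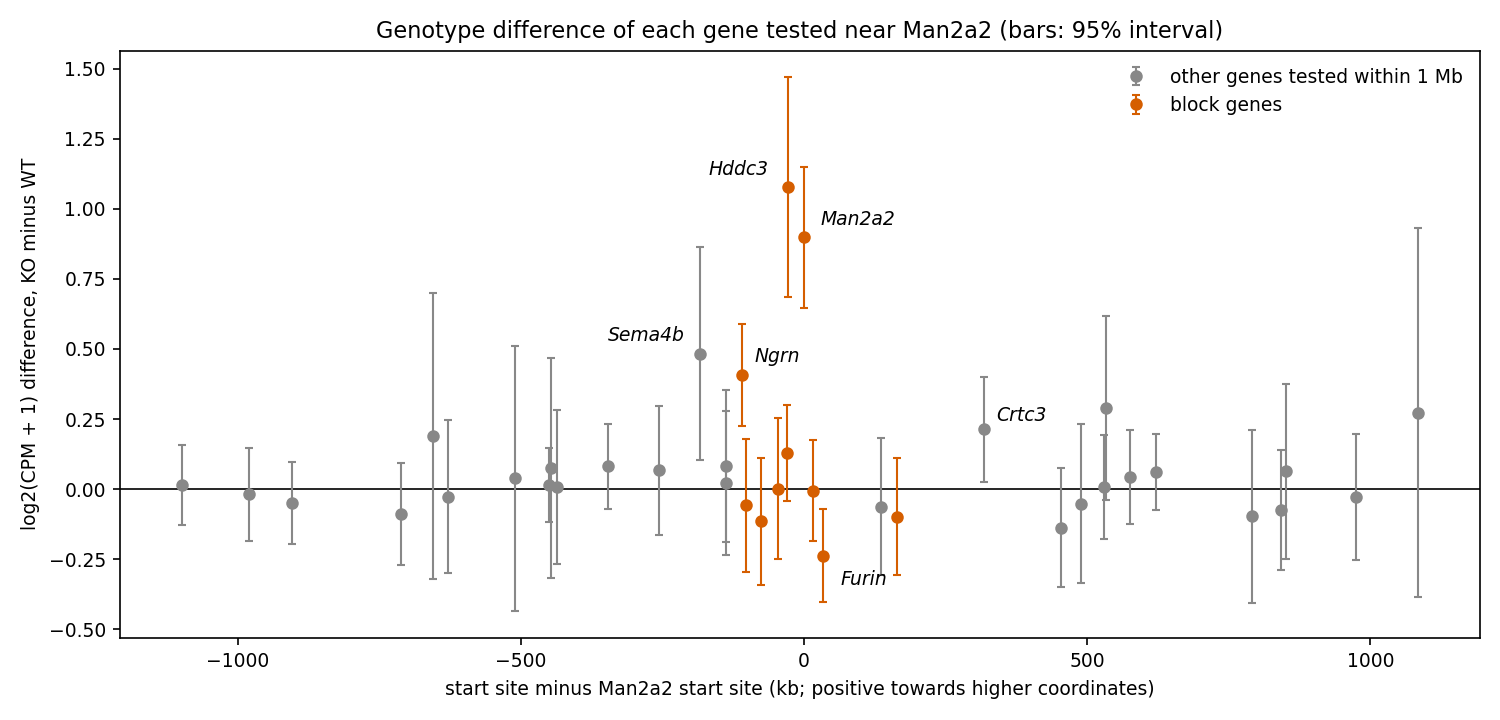
Log2(CPM + 1) difference (KO minus WT) with its 95% interval for the 38 genes tested within 1 Mb, against the distance of their start sites from that of Man2a2 in kb. The block genes are orange: Hddc3 and Man2a2 stand highest at 1.08 and 0.90, and Furin lowest at −0.24, while the other genes lie between −0.14 and 0.48.

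Genes that work with the block genes were drawn up in 9 lists, with 134 tested genes outside the block. None of the 134 passed the threshold (limma with Benjamini-Hochberg adjustment, and limma-voom). An unadjusted p under 0.05 (limma) was found for 4 of the 134, beside 4.13% of all tested genes. Of the 134, 4.48% had all KO values above WT and 5.97% all below, beside 4.41% and 5.55% of all tested genes, and their median log2 difference was −0.02. Both shares lie near the background. The counts below include the block genes themselves.

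Around Man2a2, 12 of 23 tested genes of N-glycan processing had positive and 11 negative differences, with none past the threshold. Their median was 0.012, or −0.002 without Man2a2. Man2a1, the enzyme with the same role, averaged 244 ± 22.2 CPM (KO) and 255 ± 17.4 CPM (WT) (log2 difference −0.07, 95% interval −0.27 to 0.13). Mgat1, which makes the substrate of both, had 0.08 (−0.13 to 0.29), and Slc35a3, a Golgi transporter of nucleotide sugars, had −0.21 with all KO values under WT. Around Furin, 14 of 21 tested convertases and substrates were negative, with a median of −0.07 and none past the threshold. Pcsk7, another convertase of the trans-Golgi, had −0.06 (−0.24 to 0.12), and the integrin Itgav, which is cut by convertases, −0.27 (−0.54 to 0.01).

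Around Blm, 15 of 16 tested genes of the dissolvasome and the RecQ helicases were negative, where 50.4% of all tested genes were positive. The median of the list was −0.10 and none passed the threshold. Rmi2, which works with RMI1 in the BLM complex, averaged 1.54 ± 0.146 CPM (KO) and 2.75 ± 0.310 CPM (WT) (−0.56, −0.84 to −0.29), with no overlap. Rmi1 had −0.23 (−0.56 to 0.10) and the topoisomerase Top3a −0.01 (−0.17 to 0.15). Around Prc1, 13 of 16 tested central spindle genes were negative, with a median of −0.03 and none past the threshold. Kif4, the kinesin that carries PRC1, had −0.01 (−0.19 to 0.18), Ect2, which activates RhoA at the cleavage furrow, −0.14 and the kinesin Kif14 −0.11.

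Around Vps33b, 9 of 12 tested genes of the tethering complexes were positive, with a median of 0.08 and none past the threshold. Vps33a, its paralogue in the HOPS complex, had 0.11 (−0.02 to 0.24) with no overlap, Vipas39, the direct partner of VPS33B, 0.09 (−0.11 to 0.30), and Vps18 0.17 (−0.03 to 0.37). Around Ngrn, 7 of 12 tested genes for the 16S rRNA of mitochondria were positive, with a median of 0.04 and none past the threshold, including Rcc1l at −0.11 and Fastkd2 at −0.14. Around Unc45a, 10 of 14 chaperones and myosins were positive (median 0.03), with Myo9b at 0.08. Around Fes, 9 of 19 tyrosine kinases were positive, with a median of −0.005, or 0.006 without Fes. The closest relative of Fes, Fer, had −0.07 (−0.23 to 0.09), Tec 0.12 and Fgr, a Src-family kinase, −0.62 (−1.12 to −0.11). For Fgr the means were 17.0 ± 4.62 CPM (KO) and 26.6 ± 6.45 CPM (WT), and its groups overlapped. It was the one list gene outside the block that passed the threshold when replicate 2 of both genotypes was left out. In the last list, of NADPH enzymes and KDM8, 5 of 11 were positive (median −0.06), with the malic enzyme Me1 at −0.41 and Kdm8 at −0.13 (−0.41 to 0.15). No gene of these lists passed the threshold.

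**Figure D4:**
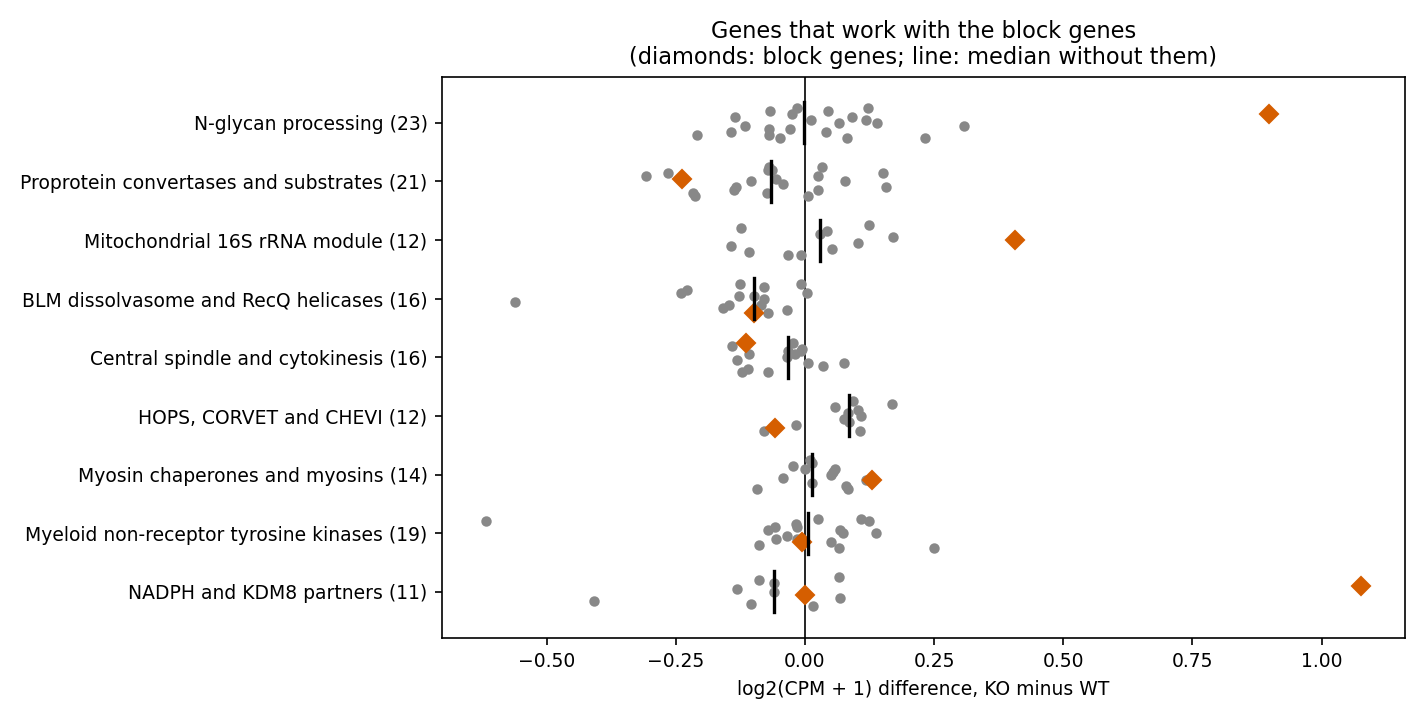
Log2(CPM + 1) difference (KO minus WT) of every tested gene in the 9 lists, 1 point per gene, with the number tested in brackets, block genes as diamonds and a line at the median of the rest. Man2a2 (0.90), Ngrn (0.41), Hddc3 (1.08) and, narrowly, Unc45a (0.13) lie to the right of the other members of their lists, while Fes, Blm and Furin lie within the range of the others.

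The genes whose level most resembled that of Man2a2 were found by Pearson correlation of log2(CPM + 1) over the 6 libraries among 12117 genes. They were Pex10 (r = 0.991), 1700030K09Rik (0.990), Ngrn (0.989), Itpk1 (0.983) and Hddc3 (0.983), so that 2 of the 5 lie in the block and the others on chromosomes 4, 8 and 12. The likeness is in shape and not in size, since the log2 difference between genotypes was 0.17 for Pex10, 0.19 for 1700030K09Rik and 0.08 for Itpk1. For the other block genes the correlation with Man2a2 was 0.754 (Unc45a), 0.189 (Fes), −0.0240 (Rccd1), −0.101 (Vps33b), −0.382 (Prc1), −0.634 (Blm) and −0.743 (Furin). These values describe 6 points that share the contrast by which the block was chosen and the library sizes.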

How the data were processed

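The 10 genes and the lists were chosen with earlier results of these data known. The authors deposited 1 table with a value per gene and library, a fold change and a p-value. The deposited fold changes and p-values of the authors were not used. Per the file headers the values are CPM, and from their range they are log2 CPM. Values of size 1 and above had lost their decimal marks. These were restored from the step that a single read makes in each library's linear values, and 1485 to 1511 values per library with 2 possible readings took the one nearest a whole read, with 0 unresolved. Of the 15325 to 15351 values per library with a single reading, 100% were whole reads within a relative gap of 1e-06. Decoding was checked on simulated data. The submitters' processing notes list HTSeq 0.11.0, HISAT2 2.1.0 and Trimmomatic 0.36 among others. For roles, build and strand setting, nothing is given in the sources used here.

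CPM were computed from these reads and the scaled library sizes of the authors, and genes reaching 1 CPM in 3 or more libraries entered a limma model (version 3.58.1, R 4.3.3, moderated with a mean trend) of log2(CPM + 1) on genotype alone. A gene passed at a two-sided Benjamini-Hochberg adjusted p under 0.05. The limma step was also run on simulated counts, drawn with the same added spread for every gene and no outlying replicate. Its error rate on these libraries is not known from that run. Replicates differed beyond counting noise (chi-square over its degrees of freedom 10.9 to 44.1), so none were merged. Positions and exon lengths come from GENCODE M21 on GRCm38, which may not be the build of the authors. Named were the block genes, the nearest tested genes, non-members within 1 Mb with separated groups, 12 direct partners, the 2 list genes with the smallest p per list, and the 5 genes most like Man2a2. A gene that this rule names is not reported here.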

Additional observations from a re-analysis of the deposited data

How the results depend on the processing

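Over 13 alternatives, the log2 difference of Man2a2 ranged from 0.79 to 0.99, Hddc3 from 0.90 to 1.31, Ngrn from 0.37 to 0.44, Unc45a from 0.10 to 0.17 and Furin from −0.32 to −0.20, and each kept its sign, as did Blm and Prc1. Fes, Rccd1 and Vps33b, whose differences lie near 0, changed sign in 3, 4 and 2 of the 13. The summed Man2a2 and Hddc3 ratio ranged from 1.78 to 2.08 with 1 library left out and was 1.94 on total reads. The number of genes past the threshold over all genes, 2 in the fit reported, was 1 with limma-voom on the recovered reads, 1 with no filter on low values, 24 without both libraries with almost no Xist, and 1 to 8 with 1 library left out, the 8 without WT replicate 2. Without both libraries with almost no Xist, 1 block gene (Man2a2) and 1 list gene (Fgr) passed, against 0 in the fit reported. No block gene passed with 1 library left out, and the adjusted p of Man2a2 (limma) ranged from 0.0283 to 0.713 over the alternatives. The adjusted p of Man2a2, here and below, is no test of that gene, since the same libraries chose the block. The number of genes within 1 Mb with separated groups, 8 in the fit reported, ranged from 10 to 13 with 1 library left out (13 without WT replicate 2) and was 18 without both libraries with almost no Xist, where separated groups are also more frequent over all tested genes (13.4% to 30.1% and 42.8%, against 9.95%). With a distance of 2 Mb it was 12 of 51 tested genes, and all these counts include the block genes. Of the 41 non-members within 2 Mb, 5 (12.2%) had all KO values above WT and 2 (4.88%) had them below. The shares over all tested genes were 4.41% and 5.55%. The lowest log2 difference among the 41 was −0.49.

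The labels number the libraries 1 to 3 in each genotype, and replicate 2 had almost no Xist in both. Correlations of same-numbered deviations were −0.216, −0.134 and 0.140, and those of differently numbered ones ran from −0.394 to 0.398. The numbers were therefore not taken to pair the samples in the fit reported. With the replicate number as a block, 2 genes passed over all genes, none of them in the block, and the adjusted p of Man2a2 (limma) was 0.167. With 3 libraries per genotype and under 120 reads of Hddc3 in each WT library, small shifts of Hddc3 and Rccd1 could not be resolved at this depth.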
